A study of Mus musculus with 2 samples.

Results

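The receptors for the growth factors that drive blood cell production are encoded by a small set of genes, and DNase I hypersensitivity over 9 of them was described in M1 cells before and after IL-6. The genes were *Csf1r*, *Csf2ra*, *Csf2rb*, *Csf2rb2*, *Csf3r*, *Kit*, *Flt3*, *Il3ra* and *Epor*. They were picked by name, and all 9 were found among the 22605 genes of the deposited table, where 22 of 55432 transcript rows belong to them. The row with the most windows stands for each gene. M1 is a mouse myeloid leukemia line of progenitor type that differentiates toward macrophages in IL-6. DNase I hypersensitive sites were sequenced (DHS-seq) in 2 libraries, 1 from untreated cells and 1 from cells kept in IL-6 for 4 to 5 days. Both came from the same line at passages 15 to 18 in medium with horse serum, and the labels name no transgene for either. The dose of IL-6 is not given in the sources used here. Since each condition has 1 library, no difference below has a replicate check, no p-value is given, and a treated culture cannot be told apart from a library that differs for another reason.

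Hematopoietic growth factor receptors fall into a pair of families. Csf1r (the receptor of M-CSF and IL-34), Kit (the receptor of stem cell factor) and Flt3 (the receptor of FLT3 ligand) are receptor tyrosine kinases, which pair up on binding their ligand and phosphorylate each other. The others are cytokine receptors without a kinase of their own, which signal through bound Jak kinases and Stat factors. Il3ra and Csf2ra are alpha chains that bind IL-3 and GM-CSF, Csf2rb is the beta chain they share, and Csf2rb2 is a second mouse beta chain used for IL-3. Csf3r binds G-CSF and Epor binds erythropoietin, each as a pair of identical chains. In blood formation Kit and Flt3 are known from stem cells and early progenitors, Csf1r from the macrophage lineage, Csf3r from the granulocyte lineage and Epor from the red cell lineage.

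Promoter sequences are shown for 4 of the genes to place the measured windows against the start of transcription. The table holds signal over coding spans, from start codon to stop codon, and the windows reach the RefSeq transcription start in *Flt3* and *Kit* alone among the genes placed here. RefSeq promoters (250 bases before to 50 after the start, from a table of mouse genes) were used for 7 of the 9 genes. All 7 were placed on NCBIM37 by exact match. Promoters of *Csf1r* and *Csf2rb* were not included, so the motif matches below do not cover these genes. *Flt3* and *Il3ra* had the highest signal of the set, *Csf2ra* has a double PU.1 motif close to its start, and *Epor* has the red cell GATA motif. Capitals mark matches, on either strand, to the motifs of PU.1, Runx, GATA, C/EBP, Stat or Hoxa9 factors that are spelled out with their positions in the next paragraph.
Flt3, chr5:148212016-148212315, minus strand: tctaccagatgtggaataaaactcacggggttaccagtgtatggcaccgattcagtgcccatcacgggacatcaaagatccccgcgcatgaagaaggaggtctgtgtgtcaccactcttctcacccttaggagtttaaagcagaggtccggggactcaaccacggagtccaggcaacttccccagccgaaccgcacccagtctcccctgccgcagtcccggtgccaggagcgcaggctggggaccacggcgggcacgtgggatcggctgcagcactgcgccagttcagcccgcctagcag
Il3ra, chr14:15178759-15179058, plus strand: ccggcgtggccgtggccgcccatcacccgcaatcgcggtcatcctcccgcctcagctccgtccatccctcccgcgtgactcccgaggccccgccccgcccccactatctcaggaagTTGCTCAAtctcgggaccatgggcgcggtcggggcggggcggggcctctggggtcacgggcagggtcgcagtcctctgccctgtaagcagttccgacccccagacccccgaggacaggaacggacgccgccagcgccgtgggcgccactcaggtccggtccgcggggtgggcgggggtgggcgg
Csf2ra, chr19:61304272-61304571, minus strand: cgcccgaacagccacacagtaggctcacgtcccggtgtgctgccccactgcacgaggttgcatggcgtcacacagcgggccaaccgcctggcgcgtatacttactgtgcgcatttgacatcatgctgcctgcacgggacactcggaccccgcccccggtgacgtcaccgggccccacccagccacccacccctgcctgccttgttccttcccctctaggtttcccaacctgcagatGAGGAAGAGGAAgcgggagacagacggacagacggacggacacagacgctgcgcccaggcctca
Epor, chr9:21767971-21768270, minus strand: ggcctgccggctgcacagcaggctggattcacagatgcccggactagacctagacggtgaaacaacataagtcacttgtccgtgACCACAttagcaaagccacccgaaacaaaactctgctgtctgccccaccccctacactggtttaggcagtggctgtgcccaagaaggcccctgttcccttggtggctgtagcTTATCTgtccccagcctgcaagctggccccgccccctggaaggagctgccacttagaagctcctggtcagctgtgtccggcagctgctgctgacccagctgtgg

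All 300 bases of the *Flt3* promoter lay within the measured windows. They held 18 CpG dinucleotides at 61.0% GC and none of the capitalized motifs. The *Il3ra* promoter, 443 bp outside the measured windows, was the most GC-rich at 74.3%, with 35 CpG dinucleotides, against medians of 52.7% and 7 over 32851 promoters of the same length. It held 1 match to the C/EBP motif TTGCNNAA at -134 from the start, a motif present in 10.8% of all promoters. Matches to the PU.1 motif GAGGAA were found at -14 and -8 in *Csf2ra*, at -86 in *Csf3r*, at -223 in *Kit*, and at -167 and 30 in *Csf2rb2*, and 28.3% of all promoters hold at least 1. *Epor* held a match to the GATA factor motif AGATAA at -54, and 11.2% of all promoters hold this motif. It also held a match to the Runx motif TGTGGT at -166, which 16.8% of all promoters hold. The promoter of *Csf2rb2* held a match to the Stat motif TTCNNNGAA at -15, which 8.30% of all promoters hold. No match to the Hoxa9 motif TGATTTA, present in 2.97% of all promoters, was found in these 7. The short Myb motif AACNG, not capitalized, is present in 80.3% of all promoters and was found in 6 of the 7 genes, *Kit* being the other. No matches overlapped one another. A match of letters does not show that a factor binds, and outside *Flt3* and the last 61 and 65 bases of the 2 RefSeq promoters of *Kit* these sequences lie beyond the windows of their gene.

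The unit of the values is reads per 700-bp window, averaged over the windows that the coding span touches, so that genes of different length can be compared. The reads behind each mean were recovered, and each IL-6 read had been scaled by the authors to 1.03816. Non-overlapping coding spans held 7676317 reads in the untreated library and 7122757 in the IL-6 library. The median gene had 7.75 reads per window in the untreated library and 8.14 after scaling in the IL-6 library, and the median log2 ratio of the genes tested was 0.03. Of these levels 95% exact Poisson intervals are given, and of the ratios between libraries 95% Clopper-Pearson intervals, which cover counting error only. As a check of the cells, the 3 B cell and 3 T cell marker genes had 6.60 to 12.9 reads per window in the untreated library. The 8 progenitor marker genes had 4.10 to 53.4 (median 14.6), the 9 macrophage genes 2.75 to 129 (median 9.29) and the 3 erythroid genes 3.0 to 51.6, so the ranges of the lists overlapped. None of the marker genes was at 0 in either library, and signal over a coding span does not by itself tell an active gene of the cell type from a silent one. After IL-6, 1 of 8 progenitor, 3 of 9 macrophage and 1 of 2 erythroid marker genes (*Klf1*; the third had too few reads) were past 2-fold downward on the deposited scaling, beside 13.5% of all genes tested, and 0 of the 9 B cell, T cell and fibroblast genes, where the progenitor list holds *Kit* and *Flt3* and the macrophage list *Csf1r*. In bulk nuclei a site open in fewer cells and a site less open in each cell cannot be told apart.

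In untreated M1 cells *Flt3* had the highest signal of the receptor genes and *Kit* the lowest, although both encode receptor tyrosine kinases of early progenitors. *Flt3* had 53.4 reads per window (interval 52.0 to 54.8), at the 96.1 percentile of all genes. *Il3ra* had 39.3 (36.0 to 42.9), at the 93.9 percentile, and *Csf1r* had 26.2 (24.5 to 27.9), at the 89.4 percentile. These were followed by *Epor* with 16 (13.2 to 19.3), *Csf2rb* with 12.3 (11.0 to 13.7), *Csf2rb2* with 12 (10.5 to 13.5) and *Csf2ra* with 10.8 (8.11 to 14.1). *Epor* was 1.31 times *Csf2rb* (interval of the ratio 1.04 to 1.62), while the intervals for *Csf2rb* over *Csf2rb2* (0.868 to 1.21) and *Csf2rb2* over *Csf2ra* (0.822 to 1.51) included 1. *Csf3r* had 6.20 (5.26 to 7.26) and *Kit* had 4.10 (3.73 to 4.49), at the 40.3 and 25.6 percentiles and below the median gene. Thus 7 of the 9 genes were above the median of all genes in untreated cells.

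After IL-6 the range of the set was narrower. *Flt3* was still highest with 29.5 scaled reads per window (28.4 to 30.6), at the 97.9 percentile, and *Epor* was next with 19.6 (16.4 to 23.2), at the 92.1 percentile. *Csf1r* with 14.8, *Csf2rb2* with 14.4, *Il3ra* with 14.1, *Csf2rb* with 13.5 and *Csf2ra* with 12.7 followed, and the intervals of the ratios between neighbors among these 5 all included 1. *Csf3r* with 6.23 and *Kit* with 5.45 were again the lowest pair, with a ratio between them of 1.14 (0.950 to 1.37).

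**Figure D1:**
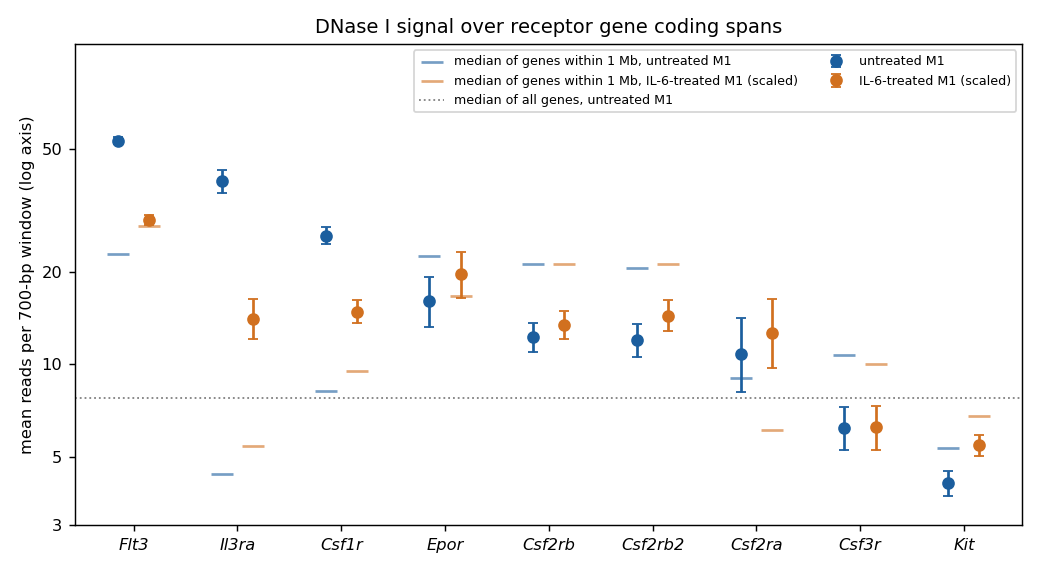
Mean reads per 700-bp window (log axis) over the coding span of each receptor gene in the untreated library (blue) and, scaled as deposited, the IL-6 library (orange). Points have 95% exact Poisson intervals, short bars are medians of the genes within 1 Mb, and the dotted line is the untreated median of all genes (7.75). *Flt3*, *Il3ra* and *Csf1r* stand at 53.4, 39.3 and 26.2 in untreated cells and at 29.5, 14.1 and 14.8 after IL-6.

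On the deposited scaling *Il3ra* was the 1 receptor gene of 9 whose signal was lower by 2-fold or more after IL-6, and 0 were higher by 2-fold or more. In the table as a whole, 18407 genes had over 21 reads in an untreated or IL-6 library, of which 13.5% passed 2-fold downward and 1.63% upward, so the share among the receptor genes (11.1% downward) was near the background. *Il3ra* had 511 reads in untreated and 176 in IL-6-treated cells, a log2 ratio of -1.48 and a ratio of 0.358 (0.300 to 0.425). *Flt3* had 5338 and 2840 reads, a log2 ratio of -0.86 and a ratio of 0.552 (0.528 to 0.578). *Csf1r* had 943 and 514 reads, a log2 ratio of -0.82 and a ratio of 0.566 (0.507 to 0.631). These 3 are the genes that were highest in untreated cells. The other 6 had log2 ratios from 0.01 (*Csf3r*) to 0.41 (*Kit*), and the median of the 9 was 0.13.

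The direction of these ratios rests on the scaling of the deposited table. Scaling by the median of ratios over 544 single windows, each with 22 reads or more before and after IL-6, would multiply each IL-6 read by 3.68 and add 1.83 to every log2 ratio, the median of all genes included, and would then put *Il3ra* at 0.35 and all 9 genes above 0. Scaling by the total reads over coding spans (1.08) or using reads with no scaling left the counts of 2-fold genes as given. A scaling moves all genes alike, so the place of a gene among all genes does not depend on it. *Il3ra* was at the 5.72 percentile of log2 ratios over all 22605 genes, those with few or no reads included. *Flt3* was at 14.5 and *Csf1r* at 15.2, while *Kit* was at 74.0 and *Epor* at 65.5.

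**Figure D2:**
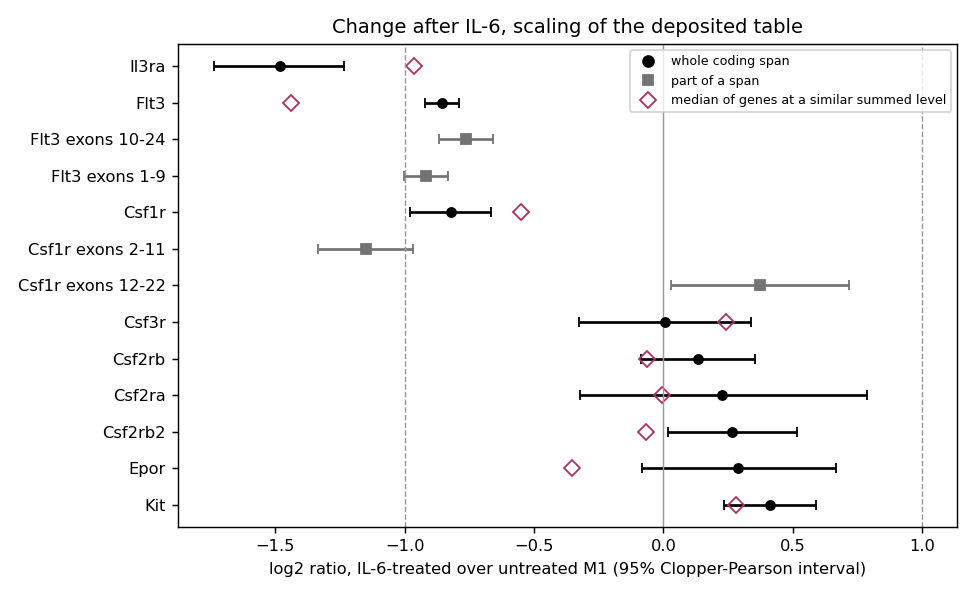
Log2 ratios of IL-6-treated over untreated M1 (x axis) for each receptor gene (black circles) and for parts of *Csf1r* and *Flt3* (grey squares), on the deposited scaling, with 95% Clopper-Pearson intervals. Open diamonds are medians of genes of similar summed level and dashed lines mark 2-fold. *Il3ra* (-1.48) is past 2-fold, *Flt3* (-0.86) and *Csf1r* (-0.82) are lower by less, and scaling by the median of single-window ratios would add 1.83 to every value and put all 9 genes above 0.

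Across the table the log2 ratio depended on the level, so the receptor genes were set beside genes whose level, summed over both libraries, was within 10% of their own. For *Flt3* these were 258 genes with a median log2 ratio of -1.44, and 81.8% of them were at least 2-fold lower on the deposited scaling. The log2 ratio of *Flt3*, -0.86, was thus above the median of the genes at its level. The 581 genes at the level of *Il3ra* had a median of -0.96, against its -1.48, and 47.5% of them were at least 2-fold lower. The 1038 genes at the level of *Csf1r* had a median of -0.55, against its -0.82. *Kit* at 0.41 was near the 0.28 of its 1575 genes, and *Csf3r* at 0.01 was below the 0.24 of its 2051 genes. The other 4 were above the genes of their level: *Epor* at 0.29 against a median of -0.36, *Csf2rb2* at 0.27 against -0.07, *Csf2ra* at 0.23 against -0.01 and *Csf2rb* at 0.13 against -0.07. The log2 intervals of *Csf2ra* (-0.32 to 0.79), *Csf2rb* (-0.09 to 0.36), *Csf3r* (-0.33 to 0.34) and *Kit* (0.23 to 0.59) included the median of their level. The place of these genes was thus within counting error. These medians describe the libraries and were not used as a test.

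*Flt3* lies on chromosome 5 from 148142747 to 148211841 (NCBIM37 coding span, minus strand), and its 100 windows cover its 24 exons and the promoter shown above. The exons make up 5.10% of the windows, so most of the sequence is intronic. The annotated transcript *Gm17398* overlaps these windows, but the coding spans of no other listed gene do. In untreated cells the SD between windows was 94.3 on a mean of 53.4 reads, and in IL-6-treated cells it was 22 on a mean of 29.5. The strongest window held 219 to 987 reads in untreated cells and 46.7 to 247 scaled reads after IL-6, the bounds that the mean and SD allow. The variance divided by the mean, which is 1 for reads spread at random, was 167 and then 15.9.

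Listed *Flt3* transcripts end at different positions, and their difference splits the gene into a pair of stretches. The 52 windows at the 5′ end, with the start site and exons 1 to 9, held 3273 reads in untreated cells (62.9 per window, SD 121) and 1668 after IL-6 (33.3 scaled, SD 26.0). Their ratio was 0.529 (0.498 to 0.561). The 48 windows with exons 10 to 24 held 2065 and 1172 reads (43.0 and 25.3 per window), a ratio of 0.589 (0.548 to 0.633). The second ratio was 1.11 times the first (exact 95% interval 1.01 to 1.22), a small difference whose interval, for counting error only, lay just above 1. In untreated cells the strongest window of the 5′ stretch held at least 292 reads and at most 919, and that of the other stretch 103 to 389. After IL-6 no window of the 5′ stretch can have exceeded 217 scaled reads, so its strongest window was at least 1.35-fold lower on the deposited scaling, a limit that the median-of-ratios scaling would undo. The 5′ stretch took 61.3% of the reads of the gene in untreated cells (60.0% to 62.6%, Clopper-Pearson) and 58.7% after IL-6 (56.9% to 60.6%), with 52.0% of its windows.

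The surroundings of *Flt3* were also high. The 26 genes within 1 Mb of its span had medians of 22.8 reads per window in untreated cells and 28.2 after IL-6, against 8.82 and 8.48 for chromosome 5. *Flt3* was 2.34 times this local median before IL-6 and 1.05 times after it, and moved from the 3rd to the 10th place of the 27 genes. After IL-6 the genes just above and just below *Flt3* in this order lay within its interval (28.4 to 30.6). The 10th place was thus not resolved beyond counting error. Next to *Flt3*, *Prhoxnb*, 8.84 kb away, had 29.5 and 33.8 reads per window, and *Pan3* on the other side had 27.1 and 20.7. By 1-Mb bins, gene medians in untreated cells were 27.8 from 0 to 1 Mb and 32.4 from 1 to 2 Mb toward higher positions, and 16.3 from 0 to 1 Mb and 5.06 from 1 to 2 Mb toward lower positions. The raised level around *Flt3* was present before and after IL-6.

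*Il3ra*, the alpha chain of the IL-3 receptor, lies on chromosome 14 from 15179645 to 15187940 (plus strand, 12 exons, 13 windows). Its 39.3 reads per window in untreated cells (SD 23.0) became 14.1 scaled reads after IL-6 (SD 8.04). The strongest window held 52 to 115 reads before and 18.7 to 40.5 scaled reads after, at least 1.28-fold less on the deposited scaling, a limit that the median-of-ratios scaling would undo. The mean and SD were lower by similar factors, so that the coefficient of variation between windows was 0.586 and 0.572. Unlike *Flt3*, *Il3ra* stood alone in its surroundings in untreated cells. The 11 genes within 1 Mb had medians of 4.4 and 5.42 reads per window, and *Il3ra* was 8.94 times the first and 2.59 times the second. It was the highest of the 12 genes in both libraries. The nearest listed genes on either side, the olfactory receptor gene *Olfr31* and the pseudogene *Olfr721-ps1*, had 8.0 and 3.0 reads per window in untreated cells. After IL-6 *Olfr31* had 12.5 scaled reads per window from 24 reads over 2 windows, within the interval of *Il3ra* (12.1 to 16.3). The first place of *Il3ra* after IL-6 was thus not resolved beyond counting error. Every 32-base sequence of the *Il3ra* windows was unique in the genome (100%).

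*Csf1r*, the M-CSF receptor, lies on chromosome 18 from 61265604 to 61290134 (plus strand), and its 36 windows cover exons 2 to 22 of 22. In untreated cells its signal was the most uneven of the set relative to its mean, with a coefficient of variation of 1.97 between windows, and after IL-6 this was 0.697. Its listed transcripts split it into 22 windows with exons 2 to 11 and 14 windows with exons 12 to 22. The first stretch held 814 reads in untreated cells (37.0 per window, SD 64.1) and 353 after IL-6 (16.7 scaled, SD 11.8), a log2 ratio of -1.15 and a ratio of 0.450 (0.396 to 0.511). The second held 129 and 161 reads (9.21 and 11.9 per window), a ratio of 1.30 (1.02 to 1.65). The second ratio was 2.88 times the first (exact 95% interval 2.19 to 3.78), so the stretches of the gene differed in their change beyond counting error, whatever the scaling.

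The 5′ stretch of *Csf1r* held 86.3% of the reads of the gene in untreated cells (84.0% to 88.5%, Clopper-Pearson) and 68.7% after IL-6 (64.5% to 72.7%), with 61.1% of its windows. It has 3 of the 4 listed 5′ ends of *Csf1r* transcripts inside it, and a known enhancer of the gene lies in an intron of this part. Its strongest window held 144 to 324 reads in untreated cells and at most 68.5 scaled reads after IL-6, so it was at least 2.10-fold lower on the deposited scaling, a limit that the median-of-ratios scaling would undo. In the 3′ stretch no window can have held more than 22 reads before IL-6 or 35.3 scaled reads after it. The flanking genes did not share the lower level: *Pdgfrb*, a related kinase receptor, had 10.6 and 12.8 reads per window and *Hmgxb3*, 1.66 kb away, had 8.66 and 10.1. *Csf1r* was 3.19 times the median of the 31 genes within 1 Mb in untreated cells and 1.56 times after IL-6.

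**Figure D3:**
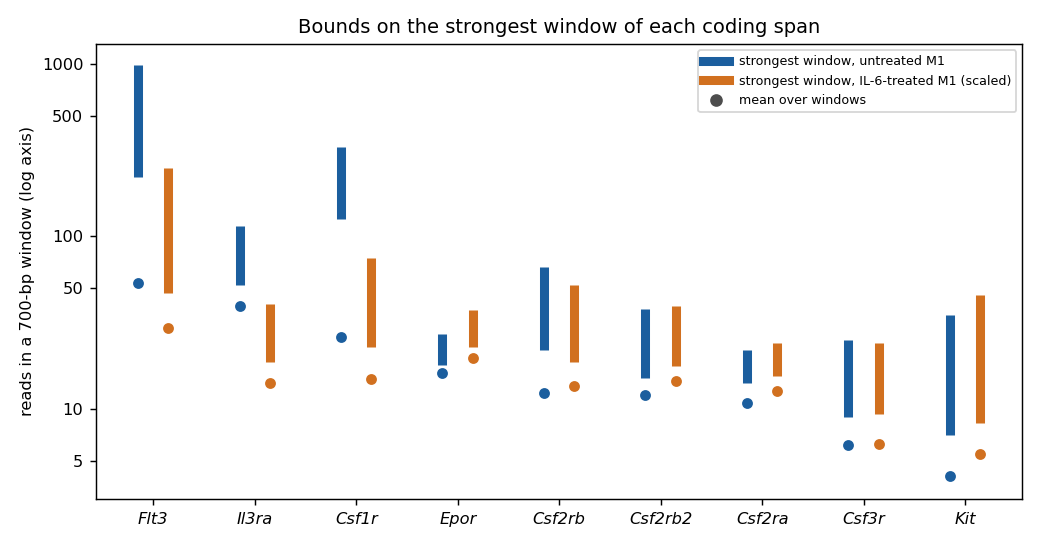
Bounds on the reads in the strongest 700-bp window (bars, log axis) and mean reads per window (points) for each receptor gene in untreated (blue) and IL-6-treated (orange, scaled as deposited) M1. The bars of *Il3ra* (52 to 115, then 18.7 to 40.5) and *Csf1r* (126 to 327, then 22.8 to 74.7) do not overlap, while those of *Flt3* and of the other 6 genes do. The bars use whole spans. The stretches of *Flt3* set tighter bounds that do not overlap, at least 292 reads untreated and at most 217 scaled reads after IL-6. The median-of-ratios scaling would raise the orange values to overlap or pass the blue ones.

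*Kit*, on chromosome 5 from 75971041 to 76050570 (plus strand, 21 exons, 114 windows), had a low signal that was even by variance over mean. It held 467 reads in untreated and 598 in IL-6-treated cells, a ratio of 1.33 (1.18 to 1.5). The variance over the mean was 2.21 and 2.68, and no window can have held more than 35 reads in untreated cells or 45.7 scaled reads after IL-6. The coefficient of variation between windows was 0.734 and 0.715, higher than for *Il3ra* (0.586 and 0.572). The 14 genes within 1 Mb were at similar levels (medians 5.36 and 6.78). *Pdgfra* and *Kdr*, the kinase receptor genes on either side of it, had log2 ratios of 0.40 and 0.62, next to 0.41 for *Kit*. Only 61 of the 300 bases of its first RefSeq promoter lie in its windows, so most of the promoter is not part of these values.

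**Figure D4:**
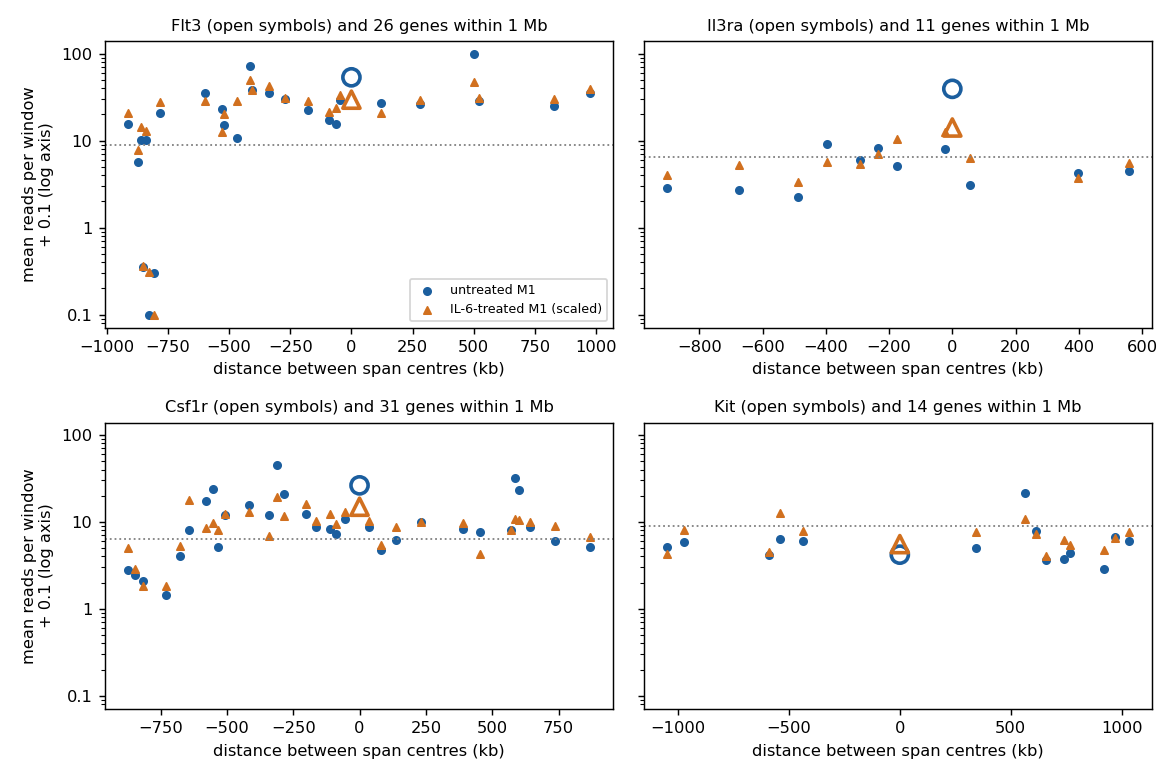
Mean reads per window (plus 0.1, log axis) of each listed gene whose span lies within 1 Mb of *Flt3*, *Il3ra*, *Csf1r* or *Kit*, against the distance between span centres, in untreated (blue circles) and IL-6-treated (orange triangles, scaled as deposited) M1. Large open symbols are the receptor gene and the dotted line is the untreated chromosome median. *Il3ra* lies above all 11 neighbors in both libraries, but after IL-6 *Olfr31* (12.5) is within its counting error. *Flt3* lies among neighbors that are themselves high (median 22.8), and *Kit* lies within the range of its 14 neighbors.

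The beta chain genes *Csf2rb* and *Csf2rb2* are neighbors on chromosome 15, with coding spans from 78165604 to 78184021 (plus strand, 14 exons, 27 windows) and from 78114747 to 78128659 (minus strand, 14 exons, 21 windows), 36.9 kb apart. *Csf2rb* held 331 and 350 reads, a ratio of 1.10 (0.942 to 1.28), and *Csf2rb2* held 251 and 291, a ratio of 1.20 (1.01 to 1.43). The genes share sequence: 21.8% of the 32-base sequences of *Csf2rb* and 28.1% of those of *Csf2rb2* occur in the other gene. Of all their 32-base sequences, 75.1% and 70.0% were unique in the genome. Reads from shared sequences could be assigned to either gene or lost, so for these the split between the genes is uncertain. Taken as a pair they held 582 and 641 reads, a ratio of 1.14 (1.02 to 1.28). Levels were high over the whole region, and the beta chain genes were below it. The 54 genes within 1 Mb of *Csf2rb* had a median of 21.2 reads per window in both libraries, of which *Csf2rb* had 0.577 and 0.635 times, and chromosome 15 had the highest median of the chromosomes in the table (14.6 and 14.8). *Ncf4*, next to *Csf2rb2* and encoding a subunit of the phagocyte oxidase, had 54.9 reads per window in untreated cells and 25.7 after IL-6.

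Within *Csf2rb* the first 20 windows, with exons 2 to 13, held 257 and 238 reads, a ratio of 0.961 (0.803 to 1.15). The 6 windows with the last exon held 70 and 99, a ratio of 1.47 (1.07 to 2.02), and 1 window between the stretches held 4 and 13. The ratio of these 6 windows was 1.53 times that of the first 20 windows (exact 95% interval 1.06 to 2.21). The interval is for counting error only and leaves aside the uncertain split of reads between the beta chain genes.

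*Csf2ra*, the alpha chain of the GM-CSF receptor, lies on chromosome 19 from 61300907 to 61303268 (minus strand, 12 exons) and touches 5 windows. It held 54 and 61 reads, a ratio of 1.17 (0.80 to 1.72), so a change of this size was within counting error. The 11 genes within 1 Mb had medians of 9.0 and 6.10 reads per window, and *Csf2ra* was 1.20 and 2.08 times these. *Csf3r*, the G-CSF receptor, lies on chromosome 4 from 125704581 to 125721082 (plus strand, 17 exons, 25 windows). It held 155 and 150 reads, a ratio of 1.00 (0.797 to 1.27), and its neighbor *Mrps15*, 3.23 kb away, had 17.1 and 10.5 reads per window. Of its 32-base sequences 83.2% were unique in the genome.

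*Epor*, the erythropoietin receptor, lies on chromosome 9 from 21763503 to 21767875 (minus strand, 8 exons, 7 windows). It held 112 and 132 reads, 16 and 19.6 per window, a ratio of 1.22 (0.944 to 1.59). Its windows were nearly even in untreated cells, with a variance over the mean of 1.5, and 3.30 after IL-6. Only 1.79 kb away, *2310047B19Rik* had 276 reads per window in untreated cells and 53.6 after IL-6, with a log2 ratio of -2.36, and *Rgl3* on the other side had a log2 ratio of 0.49. The *Epor* span lay next to a strong site without sharing its lower level.

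Variance over mean between windows, computed on unscaled reads, was lower after IL-6 in 7 of the 9 receptor genes, with *Kit* and *Epor* higher. Over the 16174 genes of at least 5 windows it was lower in 73.9%, with medians of 6.61 in untreated cells and 3.87 after IL-6. The share among the receptor genes was near that of all genes.

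Around the receptors, the genes of their pathways were described in 5 lists, beside the 13.5% of all genes past 2-fold downward and the 1.63% upward. Of the 10 ligand genes 1 was at least 2-fold lower and 0 were higher (median log2 ratio 0.22). *Flt3l*, the ligand of Flt3, had 54.2 reads per window in untreated cells and 16.1 after IL-6, a log2 ratio of -1.75, so that ligand and receptor both had high untreated signal. *Csf3*, encoding G-CSF, was at the other end with 46 and 76 reads (log2 ratio 0.77). *Kitl*, encoding stem cell factor, had 2.94 and 4.46 reads per window, low like *Kit*. Ligand and receptor differed for *Il3*, which had 5.0 reads per window in untreated cells, against 39.3 for *Il3ra*. *Csf1*, the first ligand of Csf1r, had a log2 ratio of -0.39 and *Il34*, the second, -0.01.

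Of the 14 related receptor genes 1 was at least 2-fold lower, *Il2rg*, the common gamma chain, with 52 and 22 reads and a log2 ratio of -1.17, and 0 were higher (median 0.28). *Il6ra* and *Il6st*, the chains of the IL-6 receptor itself, had log2 ratios of -0.39 and -0.06. *Il5ra*, which pairs with Csf2rb, had 0.76. Of the 19 signaling genes 1 was at least 2-fold lower, the kinase gene *Fes*, with 808 and 279 reads and a log2 ratio of -1.48, and 0 were higher (median -0.22). *Jak2*, the kinase that most of these cytokine receptors use, had 392 and 407 reads, and *Stat5a*, which acts after it, had 597 in both libraries.

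Of the 10 inhibitor genes 9 had enough reads, and 0 of these were past 2-fold in either direction (median -0.40). *Inpp5d* at -0.996, *Ptpn6* at -0.97 and *Socs1* at -0.96 lay just short of it. The first 2 encode phosphatases that limit receptor signaling. *Cish*, an inhibitor induced by Stat5, was at the other end with 0.29. Of 12 transcription factors known to act on receptor genes, 11 were matched, 5 of them past 2-fold downward and 0 upward (median -0.95). These were *Cebpb* (-1.91), *Cebpa* (-1.61), *Hoxa9* (-1.23), *Tal1* (-1.19) and *Spi1* (-1.16), the last encoding PU.1. The median level of the list in untreated cells was 25.1 reads per window, against 7.75 for all genes. Since the log2 ratio depended on the level, the share over all genes was not a like comparison. Genes of similar level were not set beside this list. *Cebpa* and *Cebpb* touch only 2 windows each, with 93 and 29 reads for *Cebpa* and 181 and 46 for *Cebpb*. All directions are on the deposited scaling, and adding 1.83 to each would leave only *Cebpb* below 0 among the genes of these lists.

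**Figure D5:**
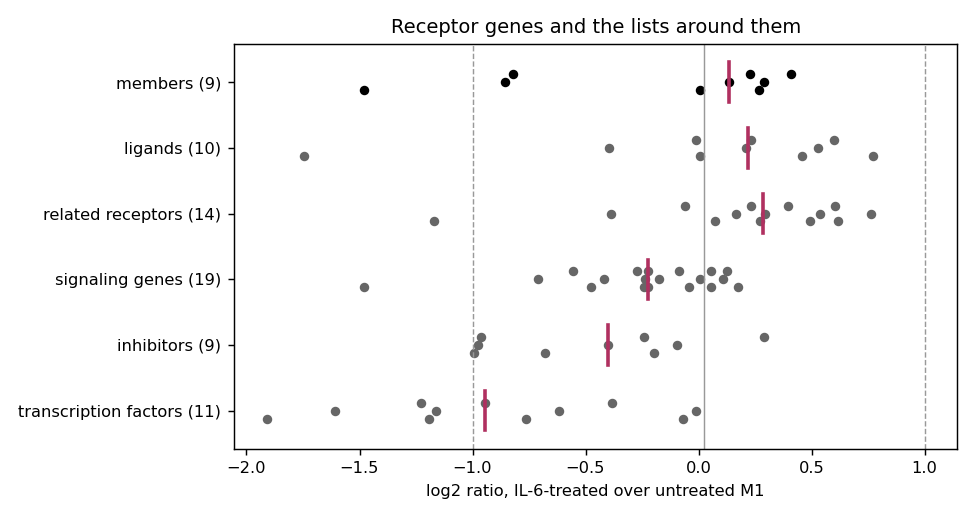
Log2 ratios of IL-6-treated over untreated M1 on the deposited scaling (x axis) for the receptor genes and 5 lists around them, with the number of genes with enough reads in brackets. Each point is a gene, red bars are list medians, the solid line is the median of all genes tested (0.03) and dashed lines mark 2-fold. Medians run from 0.28 for related receptors to -0.95 for transcription factors, and the median-of-ratios scaling would add 1.83 to every point.

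For each receptor gene the most similar gene was sought over 4 values, the log2 mean and log2 SD in both libraries, among genes of at least 10 windows. *Kit* was nearest to *Zkscan1* (distance 0.0619), *Csf2ra* to *Mical1* (0.0626), *Csf2rb* to *Agap3* (0.0678), *Epor* to *Krt71* (0.0914), *Csf2rb2* to *Trpm5* (0.101), *Csf1r* to *Carkd* (0.103) and *Csf3r* to *Cdc7* (0.122). *Flt3* was nearest to *D10Jhu81e* at 0.181 and *Il3ra* to *Trp53i13* at 0.393, with 27 and 2 genes within 0.5. Thus many genes resembled *Kit* (948 within 0.5) and few resembled *Il3ra*.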

How the data were processed

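DNase I hypersensitivity was measured in untreated and in IL-6-treated M1 cells, with 1 library each. Nuclei were digested with DNase I, and trimmed reads were aligned to NCBIM37 using BWA. The signal deposited by the authors, made in Seqmonk, is the mean and SD across the 700-bp windows touched by each coding span, with each read of the IL-6 library worth 1.03816. Means multiplied by windows gave whole reads within 0.05 in all 55432 rows. Overlapping transcripts gave the reads of stretches, and the mean and SD gave bounds on the strongest window. These steps were tested on simulated windows. The members, lists and motifs were chosen with earlier results of these data known. Named genes were the receptor genes, their nearest listed neighbors, list genes past 2-fold or at the ends of a list, and the most similar genes. *Kitl*, *Il3*, *Csf1*, *Il34*, *Il6ra*, *Il6st*, *Il5ra*, *Jak2*, *Stat5a* and *Klf1* were named after their values were seen. Log2 ratios add 0.5 reads per library. A gene was called at 2-fold with more than 21 reads in either library. Gfi1 is not analyzed here. Intervals are 95% exact Poisson and Clopper-Pearson. Intervals of ratios between stretches (exact conditional odds ratio) and between genes next to each other in level were added after the data were seen. Uniqueness was taken from 32-base sequences of NCBIM37. Python 3.11.15, numpy 2.4.6, pandas 2.3.3, scipy 1.17.1, numba 0.67.0 and matplotlib 3.10.9 were used. Alternatives covered scaling, reads added, transcript row, reference, fold and read minimum.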

Additional observations from a re-analysis of the deposited data

How the results depend on the processing

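The scaling between the libraries moved the values most. With the median of ratios over single windows, 0 receptor genes were past 2-fold downward and 7 upward, the median log2 ratio was 1.96 and *Il3ra* turned to 0.35. That scaling is built from windows that hold 22 reads or more before and after IL-6, which are strong sites. It adds 1.83 to every log2 ratio, also to that of the median gene (0.03 as deposited), and so takes the median gene past 2-fold upward. The 7 upward are thus not read as a trait of the receptor genes. With the transcript of fewest windows, 2 genes were at least 2-fold lower, as *Csf1r* was then represented by its 5′ stretch (-1.15). Relative to the chromosome median, 2 were (*Csf1r* -1.0). Relative to the genes within 1 Mb, an alternative chosen after seeing the data, 3 were lower (*Il3ra* -2.02, *Flt3* -1.08 and *Csf1r* -1.04) and 1 was higher (*Csf2ra* 1.03). At 1.5-fold, 3 were lower. The counts of 2-fold genes were as reported with no scaling, total reads as scaling, 5 reads added, the median over rows and no read minimum. The share of all genes called was taken at the reported setting only, so the counts under these alternatives have no background beside them. No paired analysis was possible because the 2 libraries share no more than 1 replicate number. Depth limits short spans: *Csf2ra*, with 54 and 61 reads, had an interval of its ratio from 0.80 to 1.72.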
